A study of Homo sapiens with 6 samples.

Results

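The menin, KMT2A and DOT1L machinery was followed as 10 genes out of the 28307 in the count table. The genes were MEN1, KMT2A, PSIP1, DOT1L, MLLT1, MLLT3, MLLT10, AFF1, AFF4 and ASH2L, taken by their NCBI symbols from the Entrez identifiers of the table. All 10 were found, and all 10 passed the filter on low counts. Total RNA was sequenced from OCI-AML3, a human line established from acute myeloid leukaemia in which one NPM1 allele encodes the mutant protein NPM1c and the other is normal. The siNPM1c libraries came from cells given an siRNA against NPM1c, and the siControl libraries from cells given a control siRNA. Both siRNAs were delivered with Lipofectamine RNAi MAX at 10 nM, and RNA was taken after 3 days. Each group held 3 libraries, and all 6 libraries have the same genotype label (WT) and the same batch label. Nothing in the labels says that replicates came from separate cultures, so the p-values below reflect library-to-library spread alone, and part or all of it could be technical.

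KMT2A (also MLL or MLL1) is a histone methyltransferase that places methyl groups on lysine 4 of histone H3 at gene starts. Menin, the product of MEN1, ties KMT2A to chromatin together with LEDGF, the product of PSIP1. DOT1L methylates lysine 79 of histone H3 in the bodies of transcribed genes and is recruited by the AF9 and ENL proteins of MLLT3 and MLLT1. In NPM1-mutant leukaemia this machinery is known to keep HOX genes and MEIS1 active, and inhibitors of menin and of DOT1L lower those genes. KMT2A carries a CXXC zinc finger that binds unmethylated CpG. Promoter stretches of the 3 members that were lower in siNPM1c cells are given with each CpG in capitals. They are RefSeq sequences of GRCh38.p14, written 5' to 3' on the strand of the gene, and are cut to the stretch outside every GENCODE 29 exon. They hold 29 CpG for KMT2A, 32 for AFF1 and 29 for MLLT10. A further MLLT10 window (chr10:21533506-21533755, 13 CpG) is not printed, nor is a further AFF1 window that lies in exons. Binding of KMT2A and CpG methylation were not measured here, and a link to the fall of these members was not tested.
KMT2A (chr11:118436242-118436463, plus strand): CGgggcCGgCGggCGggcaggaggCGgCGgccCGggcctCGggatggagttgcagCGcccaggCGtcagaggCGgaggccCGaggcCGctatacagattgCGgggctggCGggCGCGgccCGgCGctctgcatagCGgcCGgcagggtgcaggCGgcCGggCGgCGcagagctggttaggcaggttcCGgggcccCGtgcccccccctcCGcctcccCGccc
AFF1 (chr4:86934761-86935001, plus strand): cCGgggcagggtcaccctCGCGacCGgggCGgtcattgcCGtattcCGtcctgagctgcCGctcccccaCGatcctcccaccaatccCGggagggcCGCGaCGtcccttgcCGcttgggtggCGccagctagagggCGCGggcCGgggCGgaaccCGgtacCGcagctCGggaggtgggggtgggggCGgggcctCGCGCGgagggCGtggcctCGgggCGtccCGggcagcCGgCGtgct
MLLT10 (chr10:21533982-21534164, plus strand): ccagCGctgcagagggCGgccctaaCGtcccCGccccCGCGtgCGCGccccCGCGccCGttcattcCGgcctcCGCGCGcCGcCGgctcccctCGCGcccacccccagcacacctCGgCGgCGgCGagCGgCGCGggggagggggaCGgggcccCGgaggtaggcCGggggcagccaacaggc
In the 250 bases before each annotated start, KMT2A had 31 CpG, AFF1 had 32 and 31 at its separate starts, and MLLT10 had 39 and 13. Of the members that were not called, MLLT1 had 34, AFF4 26, MLLT3 24, PSIP1 23 and 21, and MEN1 18 and 15. Among these, MLLT1 alone reached the 31 of KMT2A. How CpG counts relate to the calls was not tested. Windows were held for 8 members, without DOT1L and ASH2L, and the 12 windows had a median of 25 CpG. The median over all 35116 windows of that length was 11 CpG, and 93.9% of all windows held at least 1. A count of 31 or more, as in KMT2A, was reached by 10.9% of all windows, and a count of 39 or more by 2.65%. The 13 of the further MLLT10 window was reached by 46.6%.

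Total counts ran from 15338450 to 25190122 in the siNPM1c libraries and from 15075235 to 23828944 in the siControl libraries. Ribosomal RNA genes took 70.2% ± 0.813 of the counts in siNPM1c libraries and 63.8% ± 0.753 in siControl libraries (SD, n = 3 each). Protein-coding genes took 21.8% ± 0.495 in siNPM1c libraries and 28.5% ± 0.457 in siControl libraries. Values are therefore given as CPM, counts scaled to a common library size with TMM factors, which takes the bulk of tested genes as level. With library sizes alone the median gene moved by -0.48 log2, and fold changes below are relative to that shift. The 10 genes together had 4809 to 7424 counts per siNPM1c library and 6013 to 9105 per siControl library. The siRNA target NPM1 averaged 23.2 ± 1.03 CPM in siNPM1c cells and 50.1 ± 0.985 CPM in siControl cells, with both alleles counted together. Of 10 myeloid blast markers 8 were tested, and the summed level of the list was 940.9 to 956.7 CPM in siNPM1c libraries and 721.5 to 736.8 CPM in siControl libraries. SPI1, CEBPA, AZU1 and ELANE made up most of this sum, while KIT had at most 2 counts in any library. Of the 8 tested, 6 were called higher and 1, CD44, lower (-0.44 ± 0.07 log2, SE), against 21.3% and 21.4% of all genes tested, and CD33 was not called. With library sizes alone 2 were higher and 4 lower, against 3.90% and 71.5%. MPO had the largest change (1.33 ± 0.30 log2), at 21 to 39 counts in siNPM1c and 10 to 22 in siControl libraries. CD34 had 8 to 12 counts in siNPM1c and 9 to 19 in siControl libraries and was not tested. Among markers of other cells, CD3D, HBB and PF4 had no count in any library. The T and NK cell list summed to 0.451 to 0.910 CPM in siNPM1c libraries and 0.507 to 0.778 CPM in siControl libraries, and the erythroid and megakaryocyte list to 1.053 to 1.198 CPM in siNPM1c and 1.238 to 1.485 CPM in siControl libraries. Of the B cell markers PAX5 was called higher (43 to 58 counts in siNPM1c libraries and 11 to 15 in siControl libraries), while MS4A1, CD79A and CD79B had at most 4 counts. The list of epithelial and stromal markers (49.3 to 57.3 CPM in siNPM1c and 43.4 to 44.6 CPM in siControl libraries) was mostly PECAM1, which myeloid cells also express. The part of these marker levels in the results below was not tested.

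The comparison asked whether transcripts of this machinery were at other levels on day 3 in siNPM1c cells than in siControl cells. DOT1L was the single member that rose, and KMT2A, AFF1 and MLLT10 fell, by 1.12- to 1.22-fold. The other 6 members, MEN1, PSIP1, MLLT1, MLLT3, AFF4 and ASH2L, did not pass the test. With edgeR's quasi-likelihood test and Benjamini-Hochberg adjustment, 21.3% of the 12938 genes tested were called higher and 21.4% lower at an adjusted p under 0.05, 42.7% in all. The count of 1 member higher and 3 lower of 10 is near that background, and is not a result about the members as a set. Scaled by library size alone, 0 members were called higher and 9 lower, against 3.90% and 71.5% of all genes tested. The median log2 fold change was -0.08 over the 10 members and -0.01 over all genes tested. The libraries of the groups did not overlap in CPM for 5 of the 10 members, against 49.2% of all genes tested. Bulk libraries cannot tell a change in the share of cells of one state from a change in RNA per cell.

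**Figure D1:**
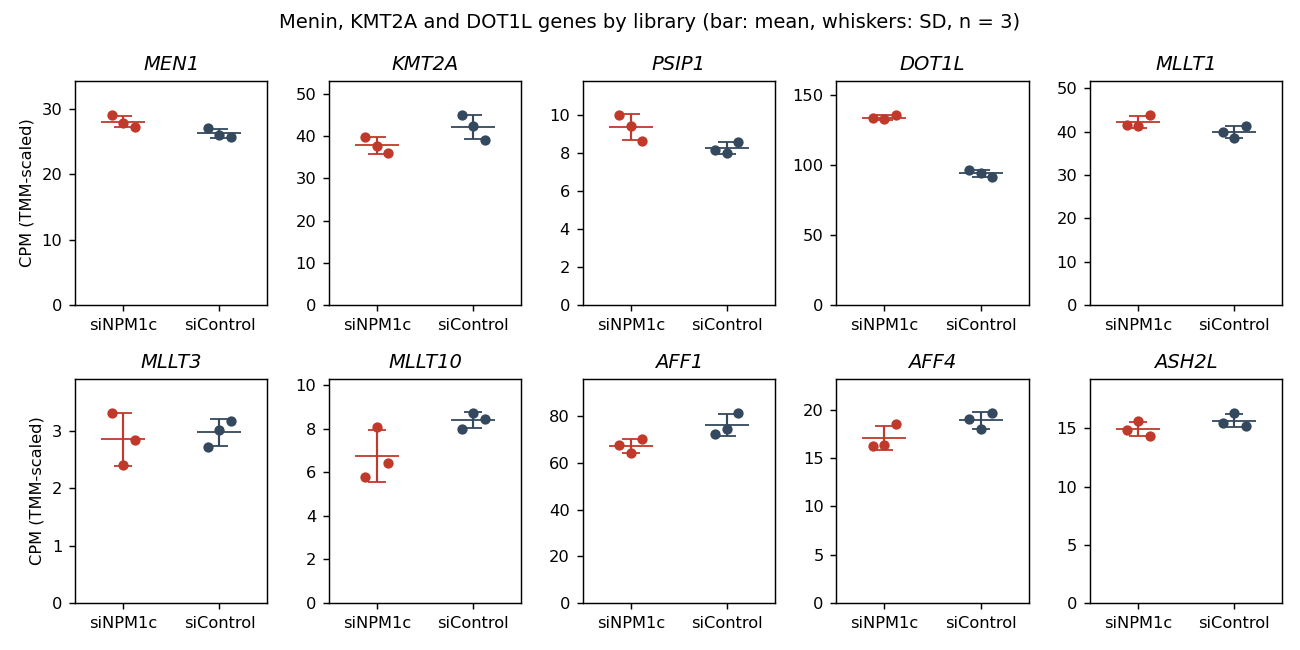
TMM-scaled CPM of the 10 members in each library, siNPM1c (red) left of siControl (dark), with the mean as a bar, the SD as whiskers and n = 3 per group; each panel has its own linear axis from 0. DOT1L stands apart in the plot, at 132.6 to 135.5 CPM in siNPM1c libraries against 91.5 to 96.5 CPM in siControl libraries, while the groups overlap for KMT2A, MLLT3, MLLT10, AFF4 and ASH2L.

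The histone H3 lysine 79 methyltransferase gene DOT1L (Entrez gene 84444, chromosome 19, 2164149 to 2232578 on the plus strand in GENCODE 29, GRCh38) had 133.5, 132.6 and 135.5 CPM in siNPM1c replicates 1 to 3, against 96.5, 94.3 and 91.5 CPM in siControl replicates 1 to 3. Every siNPM1c library lay above every siControl library, with a gap far wider than the spread inside either group. DOT1L was 1.42-fold higher (0.51 ± 0.03 log2, SE), and its adjusted p was 5.61e-38 by edgeR. This fold change was higher than that of 90.6% of the tested genes in the comparison. It was 0.41 after a correction for GC content, and 0.04 (adjusted p = 0.361) with library sizes alone, so as a share of all counts, rRNA included, DOT1L did not pass the test. The DOT1L gene overlaps PLEKHJ1 by 2495 bases and AP3D1 by 320 bases, both on the opposite strand. PLEKHJ1 changed by 0.25 ± 0.08 log2 and AP3D1 by 0.22 ± 0.03 log2, and reads of overlapping genes cannot be told apart here, since no source used here gives a strand setting. Over the 6 libraries, the genes nearest to DOT1L by Euclidean distance of centred log2 CPM, among 7391 genes of at least 5 CPM, were IRAK1 (distance 0.0507), MTMR14 (0.0510) and LONP1 (0.0593), against a median distance of 0.651. IRAK1 encodes a kinase of interleukin-1 and Toll-like receptor signalling, MTMR14 a phosphoinositide phosphatase and LONP1 a mitochondrial protease. Their log2 fold changes were 0.47, 0.48 and 0.49.

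Of the 3 partners of DOT1L among the members, MLLT10 fell, and MLLT1 and MLLT3 did not pass the test. MLLT10 (Entrez gene 8028, chromosome 10, 21524675 to 21743630, plus strand), which encodes AF10, a cofactor that DOT1L needs for higher methylation states, had 5.79, 8.10 and 6.42 CPM in siNPM1c libraries and 8.01, 8.73 and 8.45 CPM in siControl libraries. The groups overlapped, since siNPM1c replicate 2 lay above siControl replicate 1. MLLT10 was 1.22-fold lower, at -0.28 ± 0.11 log2 (SE) with an adjusted p of 0.0318 by edgeR. The call was lost in 6 of 18 alternative settings, among them DESeq2 (adjusted p = 0.145), the GC correction (adjusted p = 0.0546), and leaving out siControl replicate 2 (adjusted p = 0.120), siControl replicate 3 (adjusted p = 0.0556), siNPM1c replicate 1 (-0.19 log2, adjusted p = 0.230) or siNPM1c replicate 3 (adjusted p = 0.133). Over all 18 settings its adjusted p ran from 1.21e-10 to 0.230. MLLT1 (Entrez gene 4298, chromosome 19, 6210379 to 6279948, minus strand), the gene of the acetyl-lysine reader ENL, had 41.5, 41.4 and 43.8 CPM in siNPM1c libraries and 39.8, 38.5 and 41.3 CPM in siControl libraries. All siNPM1c values of MLLT1 lay above the siControl values by a narrow margin. Its log2 fold change was 0.09 ± 0.05, with a 95% interval from -0.01 to 0.18, and -0.03 after GC correction. MLLT3 (Entrez gene 4300, chromosome 9, 20341665 to 20622543, minus strand), the gene of the related reader AF9, had the fewest counts of the members, with 3.31, 2.40 and 2.84 CPM in siNPM1c libraries and 2.72, 3.01 and 3.18 CPM in siControl libraries. Its groups overlapped fully, and the 95% interval of its log2 fold change ran from -0.45 to 0.27. MLLT3 had 42 to 50 counts per siNPM1c library and 49 to 83 per siControl library.

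On the menin side, KMT2A fell slightly, and MEN1, PSIP1 and ASH2L did not pass the test. KMT2A (Entrez gene 4297, chromosome 11, 118436464 to 118526832, plus strand) had 39.8, 37.7 and 35.9 CPM in siNPM1c libraries and 44.9, 42.4 and 39.1 CPM in siControl libraries. The groups overlapped, with siNPM1c replicate 1 above siControl replicate 3. The KMT2A gene shares 46274 bases with AP001267.5 on the same strand and 14922 bases with AP001267.3 on the opposite strand. Neither symbol is in the count table. KMT2A was 1.12-fold lower, at -0.16 ± 0.05 log2 (SE) with an adjusted p of 0.00592 by edgeR. The call was lost with DESeq2 (adjusted p = 0.0784), with the GC correction (-0.11 log2, adjusted p = 0.0761), without siControl replicate 1 (adjusted p = 0.0709) and without siNPM1c replicate 3 (adjusted p = 0.0647), and its adjusted p over 18 settings ran from 2.38e-28 to 0.0784. MEN1 (Entrez gene 4221, chromosome 11, 64803510 to 64811294, minus strand), the gene of the scaffold menin, had 29.04, 27.88 and 27.29 CPM in siNPM1c libraries and 27.1, 26.0 and 25.7 CPM in siControl libraries. The siNPM1c values lay just above the siControl values, and the log2 fold change of 0.09 ± 0.06 did not pass the test (adjusted p = 0.200 by edgeR, 95% interval -0.02 to 0.21). PSIP1 (Entrez gene 11168, chromosome 9, 15464066 to 15511019, minus strand), whose p75 isoform LEDGF binds methylated lysine 36 of histone H3, had 10.0, 9.44 and 8.64 CPM in siNPM1c libraries and 8.17, 8.01 and 8.62 CPM in siControl libraries. The groups met at siNPM1c replicate 3 without overlapping. The log2 fold change of PSIP1 was 0.18 ± 0.10 with an adjusted p of 0.148, and it became 0.32 with an adjusted p of 0.00869 by edgeR after GC correction. PSIP1 overlaps SNAPC3 on the opposite strand by 1888 bases, and SNAPC3 was at 0.16 ± 0.12 log2, and at 0.30 and called higher after GC correction. The p75 and p52 isoforms were counted together. ASH2L (Entrez gene 9070, chromosome 8, 38105242 to 38144076, plus strand), a core subunit that the KMT2 and SET1 complexes share, had 14.9, 15.6 and 14.4 CPM in siNPM1c libraries and 15.5, 16.3 and 15.2 CPM in siControl libraries. The groups of ASH2L overlapped, and the 95% interval of its log2 fold change was -0.22 to 0.09. ASH2L overlaps STAR on the opposite strand by 428 bases, and STAR was at -0.13 ± 0.08 log2 and not called.

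AFF1 and AFF4 encode scaffolds of the super elongation complex, which carries the kinase P-TEFb to RNA polymerase II and holds ENL or AF9. AFF1 (Entrez gene 4299, chromosome 4, 86935002 to 87141054, plus strand) had 67.6, 64.2 and 70.3 CPM in siNPM1c libraries and 72.6, 74.5 and 81.5 CPM in siControl libraries. Every siNPM1c library lay below every siControl library. AFF1 was 1.13-fold lower, at -0.18 ± 0.04 log2 (SE) with an adjusted p of 2.91e-05 by edgeR, and it was called lower in all 18 alternative settings, with adjusted p from 4.59e-45 to 0.0153. AFF4 (Entrez gene 27125, chromosome 5, 132875379 to 132963634, minus strand) had 16.2, 16.4 and 18.5 CPM in siNPM1c libraries and 19.02, 17.97 and 19.65 CPM in siControl libraries. The groups of AFF4 overlapped at siNPM1c replicate 3, and the log2 fold change of -0.14 ± 0.07 did not pass the test (adjusted p = 0.106 by edgeR, 95% interval -0.29 to 0.00). Without siNPM1c replicate 3 its adjusted p was 0.0489, and over 18 settings it ran from 1.24e-14 to 0.533.

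**Figure D2:**
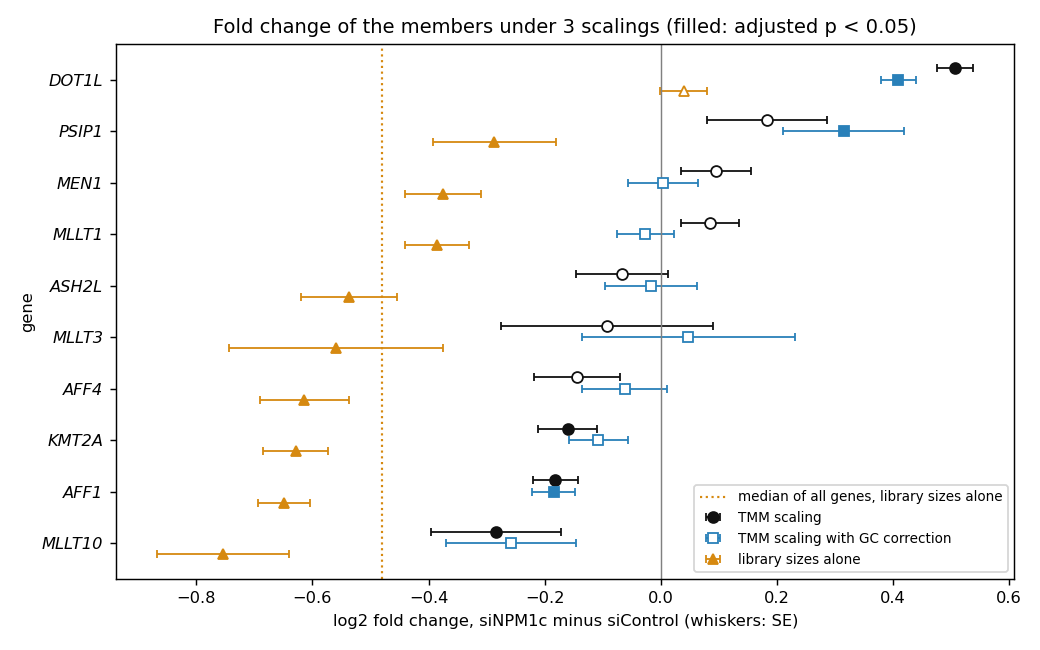
Log2 fold change (siNPM1c minus siControl) of each member with its SE, under TMM scaling (black circles), TMM scaling with a GC correction (blue squares) and library sizes alone (orange triangles); filled symbols have an adjusted p under 0.05, and the dotted line marks the median of all genes with library sizes alone (-0.48). DOT1L is farthest to the right under each of them, at 0.51, 0.41 and 0.04, and MLLT10 farthest to the left, at -0.28, -0.26 and -0.75.

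Fold changes in these libraries followed GC content, and the members differ in it. With tested genes split into 5 equal bins by GC content, in the bin of highest GC (59.5% and above) the median log2 fold change was 0.09, with 33.8% of genes called higher and 12.2% lower. In the bin of lowest GC (42.9% and below) the median was -0.22, with 9.24% called higher and 35.5% lower. DOT1L (62.7% GC), MEN1 (61.4%) and MLLT1 (64.4%) fall in the highest bin. The other 7 members range from 43.1% GC for MLLT3 to 50.8% for AFF1. After a correction of each library's GC trend, 2 members were called higher (DOT1L and PSIP1) and 1 lower (AFF1), against 20.6% and 19.2% of all genes tested. The part of GC content in the results without that correction was not tested further.

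Levels per kilobase of exon allow the members to be ordered. With exon lengths from GENCODE 29 coding transcripts, DOT1L stood highest, at 18.01 ± 0.203 CPM per kb in siNPM1c cells and 12.7 ± 0.340 CPM per kb in siControl cells (SD, n = 3 each). MLLT1 followed at 9.37 ± 0.296 CPM per kb in siNPM1c cells and 8.85 ± 0.306 in siControl cells, then MEN1 at 7.42 ± 0.235 and 6.94 ± 0.191, and AFF1 at 6.93 ± 0.315 and 7.84 ± 0.483. In siNPM1c libraries the per-length levels of MEN1 and AFF1 overlapped, while in siControl libraries AFF1 lay above MEN1 in all 3. ASH2L came next, at 4.21 ± 0.174 CPM per kb in siNPM1c cells and 4.41 ± 0.164 in siControl cells. KMT2A (2.27 ± 0.116 in siNPM1c and 2.53 ± 0.176 in siControl cells), PSIP1 (2.30 ± 0.168 and 2.03 ± 0.0774) and AFF4 (1.72 ± 0.128 and 1.91 ± 0.0860) were close to each other. PSIP1 overlapped KMT2A in siNPM1c libraries and AFF4 in siControl libraries. MLLT10 (1.13 ± 0.198 in siNPM1c and 1.40 ± 0.0608 in siControl cells) and MLLT3 (0.409 ± 0.0657 and 0.426 ± 0.0328) were lowest, and their order was the same in both groups. The exon set used for counting was not given, so these per-length levels are approximate.

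Ratios of members inside a library do not depend on how libraries are scaled, and 6 pairs were compared. The log2 ratio of MLLT10 to DOT1L counts was -4.52, -4.03 and -4.39 in siNPM1c libraries and -3.59, -3.43 and -3.43 in siControl libraries. The groups did not overlap, and the ratio was lower in siNPM1c cells by a log2 difference of -0.83 (exact two-sided permutation p = 0.1, 0.3 after adjustment over 6 pairs). A p of 0.1 is the smallest that 3 against 3 libraries can give. For KMT2A over MEN1 the log2 ratio was 0.45, 0.43 and 0.40 in siNPM1c libraries and 0.73, 0.70 and 0.61 in siControl libraries, a difference of -0.25 with groups that did not overlap (exact permutation p = 0.1, adjusted 0.3). The paralog pairs did not separate. MLLT3 over MLLT1 differed by -0.15 (exact permutation p = 0.4) and AFF4 over AFF1 by 0.03 (exact permutation p = 0.7). PSIP1 over MEN1 differed by 0.08 (exact permutation p = 0.2) and ASH2L over KMT2A by 0.09 (exact permutation p = 0.4), both with overlapping groups. The ratios were not corrected for GC content. KMT2A has 47.4% GC and MEN1 61.4%, and MLLT10 has 48.8% and DOT1L 62.7%. MLLT3 (43.1%) and MLLT1 (64.4%), and PSIP1 (43.4%) and MEN1, also differ in it, with overlapping groups. After GC correction KMT2A changed by -0.11 log2 and MEN1 by 0.004 log2. The part of GC content in the ratios was not tested.

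**Figure D3:**
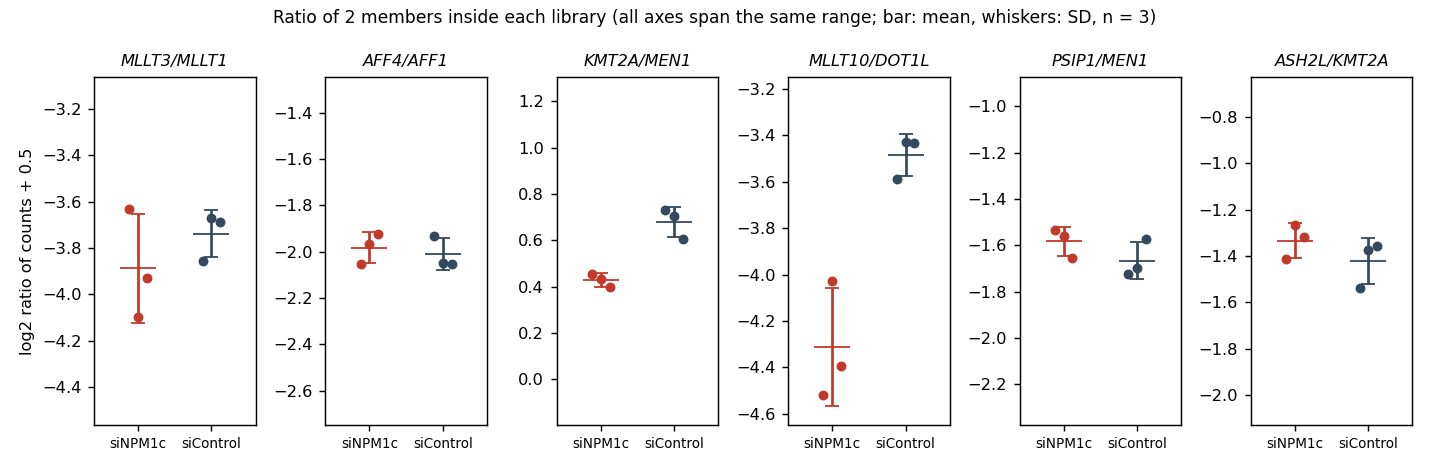
Log2 ratio of the counts (plus 0.5) of paired members inside each library, siNPM1c (red) left of siControl (dark), with mean and SD (n = 3) and axes of equal span. The groups are apart for MLLT10/DOT1L (means -4.31 in siNPM1c and -3.48 in siControl libraries) and KMT2A/MEN1 (means 0.43 and 0.68), and overlap in the other 4 panels.

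The partners of these genes were described from lists chosen for their place in the same complexes, read against the same 21.3% higher and 21.4% lower of all tested genes. Their directions hold relative to the bulk of genes: with library sizes alone, none of the genes of the 6 complex lists, up to the PAF1 complex, was called higher. With that scaling, 3.90% of all tested genes were called higher and 71.5% lower. Counts with library sizes alone, here and below, are read against these shares. Of the other subunits of the KMT2A and KMT2B complexes, 1 of 6 tested rose and 0 fell. It was KMT2B, the closest relative of KMT2A and a menin-bound methyltransferase, at 106 ± 3.42 CPM in siNPM1c cells and 91.3 ± 1.16 CPM in siControl cells (0.21 ± 0.03 log2, SE). WDR5, RBBP5, DPY30, HCFC1 and HCFC2 did not pass the test, although RBBP5 was called higher and HCFC1 lower after GC correction. In the other SET1 and KMT2 complexes 6 of 11 tested genes rose and 1 fell (5 and 0 with DESeq2, 5 and 1 after GC correction). KMT2D, an enhancer methyltransferase, was at 357 ± 7.40 CPM in siNPM1c and 304 ± 2.31 CPM in siControl cells (0.23 ± 0.02 log2), and PAGR1, a partner of the KMT2C and KMT2D complexes, was higher by 0.34 ± 0.06 log2. Scaled by library size alone, 5 of the 6 and 9 of the 11 genes were called lower, KMT2B and KMT2D among them.

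The list of further DOT1L-linked genes mixed 1 subunit with paralogs, and 3 of its 4 genes rose and 0 fell. MLLT6, which encodes AF17, a paralog of AF10 in DOT1L complexes, stood at 90.0 ± 0.688 CPM in siNPM1c cells and 77.4 ± 1.95 CPM in siControl cells (0.22 ± 0.04 log2). HDGFL2, a paralog of PSIP1 that can stand in for LEDGF, rose to 49.5 ± 1.17 CPM in siNPM1c cells against 34.0 ± 1.21 CPM in siControl cells (0.55 ± 0.05 log2, adjusted p = 7.22e-22 by edgeR). YEATS2, a reader of a histone acetyltransferase complex, was higher by 0.18 ± 0.05 log2, and YEATS4 did not pass the test. Scaled by library size alone, 2 of the 4 were called lower, MLLT6 and YEATS2.

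In the super elongation complex, beside AFF1 and AFF4, 2 of 9 tested genes rose and 5 fell (2 and 2 with DESeq2), and the median was -0.29 log2. CCNT2, a cyclin subunit of P-TEFb, fell to 3.80 ± 0.675 CPM in siNPM1c cells, against 6.39 ± 0.288 CPM in siControl cells (-0.72 ± 0.14 log2). ELL, an elongation factor, rose to 47.2 ± 2.35 CPM in siNPM1c cells, against 38.7 ± 1.23 CPM in siControl cells (0.29 ± 0.05 log2). The other called genes, named after their values were seen, were CDK9, the P-TEFb kinase (0.32 ± 0.07 log2), and on the lower side EAF1 (-0.43 ± 0.10), ELL2 (-0.65 ± 0.21), AFF3 (-0.37 ± 0.12) and the cyclin gene CCNT1 (-0.29 ± 0.10), whose call was lost after GC correction. Library sizes alone gave 7 of the 9 lower, ELL among them (-0.18). Among proteins of the 7SK particle, which holds P-TEFb inactive, 2 of 4 tested genes rose and 0 fell, and MEPCE was called lower after GC correction. Library sizes alone gave 3 of the 4 lower, HEXIM1 among them (-0.17). HEXIM1, the P-TEFb inhibitor, was higher by 0.30 ± 0.06 log2 and its paralog HEXIM2 by 0.57 ± 0.14 log2. In the PAF1 complex, which helps recruit KMT2A, 0 of 6 tested genes were called by edgeR, and all 6 were called lower with library sizes alone. CTR9 (named after its value was seen) was the 1 gene under an unadjusted 0.05 by edgeR. DESeq2 and limma-voom each called 0 of these genes, with 0 under an unadjusted 0.05.

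Most listed genes that menin-KMT2A and DOT1L are known to keep active in leukaemia fell. Of 14 tested target genes outside the HOX clusters, 9 fell and 2 rose (8 and 2 with DESeq2), against 21.4% and 21.3% of all genes tested. Their median was -0.27 log2 (-0.23 after GC correction). Library sizes alone gave 13 lower and 0 higher, against 71.5% and 3.90% of all genes tested. MEIS1, the HOX cofactor, had 2.15 ± 0.515 CPM in siNPM1c cells and 5.49 ± 0.549 CPM in siControl cells (-1.30 ± 0.17 log2). SATB1, a chromatin organiser (-0.79 ± 0.04), ADGRA3, an adhesion receptor gene (-1.12 ± 0.08), and SMC4, a condensin gene (-0.66 ± 0.05), had the smallest p. The 2 that rose, named after their values were seen, were BCL2 (0.38 ± 0.04) and ZEB2 (0.23 ± 0.04), and with library sizes alone BCL2 was not called (-0.09) and ZEB2 was called lower (-0.24). FLT3, MYB and JMJD1C did not pass the test, and MYB was called higher after GC correction. In the HOXA and HOXB clusters 17 of 21 coding genes passed the filter and were tested. Of these, 15 fell and 0 rose (14 and 0 with DESeq2), against 21.4% and 21.3% of all genes tested. Their median was -1.07, and all 17 were called lower with library sizes alone. HOXA11 changed by -1.07 ± 0.06 log2, HOXA13 by -1.47 ± 0.09 log2 and HOXA9 by -0.85 ± 0.14 log2. Several of these HOX and target genes were known from earlier results of the same libraries to be lower, and HOX genes overlap neighbours and antisense transcripts.

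**Figure D4:**
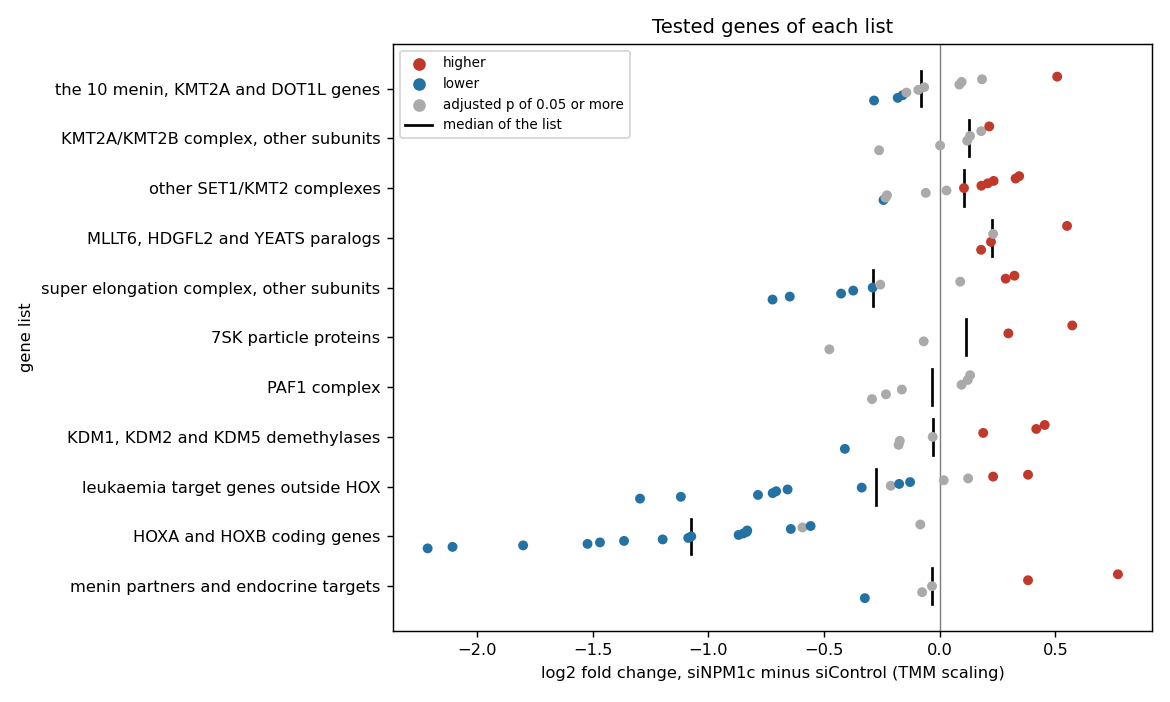
Log2 fold change (siNPM1c minus siControl, TMM scaling) of every tested gene of each list, one point per gene, red where called higher, blue where called lower and grey where the adjusted p was 0.05 or more; the black line is the median of the list. The 10 members lie between -0.28 and 0.51 with a median of -0.08, while the HOXA and HOXB genes lie between -2.21 and -0.08 with a median of -1.07.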

How the data were processed

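Total RNA libraries, 3 siNPM1c and 3 siControl, were analysed by gene counts. The authors deposited raw counts per Entrez gene as whole numbers. Listed without roles, per the submitters' processing notes, are STAR 2.7.5a, cutadapt 2.6, CASAVA 1.8 and DESeq2 1.34.0, with builds hg38 and mm10. How reads were counted (tool, gene models, strand, multiply mapped reads) is not given in the sources used. Of 28307 identifiers, 28261 matched a RefSeq symbol. Columns were assigned through the names in the labels, and groups and replicate numbers through the titles.

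Counts were tested in R 4.3.3 with edgeR 4.0.16: filterByExpr (minimum count 10, minimum total 15), TMM, glmQLFit (robust = TRUE) and glmQLFTest, two-sided, Benjamini-Hochberg over 12938 genes, called at an adjusted p under 0.05. SE is the absolute log2 fold change over the square root of F, and 95% intervals use the t quantile of the fit. The common biological coefficient of variation was 2.17%. GC content is the median over GENCODE 29 transcripts (97.1% of tested genes, 10 of 10 members), and its lowess trend (span 0.3) was used as an offset. Ratios used counts plus 0.5. The method was also run on simulated counts with a common dispersion and no GC trend, so that run does not bear on the calls reported here. Libraries of a group differed by 1.46 to 2.36 in chi-square over its degrees of freedom, above sampling noise, so none was counted as a copy.

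Named were the 10 members, NPM1, the called genes of smallest p in each list (2, or 3 for the leukaemia targets), MEIS1, HOXA9, MLLT6 and the 3 genes nearest to DOT1L. The members and lists were chosen with earlier results of these data known. One gene of the P-TEFb regulator list and one erythroid marker are not reported here. Counts over all genes, counts of members and members' fold changes were recomputed under 17 other settings, among them DESeq2 1.42.0 and limma-voom 3.58.1, and under 1 chosen after seeing the data (protein-coding genes only). List counts were recomputed with the GC correction, library sizes alone, DESeq2 and limma-voom, and ratios with counts plus 5.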

Additional observations from a re-analysis of the deposited data

How the results depend on the processing

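Over all genes tested, 2756 were called higher and 2766 lower. With library sizes alone these counts were 505 and 9253, and DESeq2 called 1754 genes lower. Among the members, 1 was called higher and 3 lower. With library sizes alone 0 were called higher and 9 lower, with the GC correction 2 higher and 1 lower, and with DESeq2 1 lower. Leaving out each library in turn gave 1 higher and 2 to 3 lower. With library sizes alone, where all counts, rRNA included, set the depth, the sign turned for MEN1 (-0.37), PSIP1 (-0.29) and MLLT1 (-0.38). The call of DOT1L was lost (0.040), and MLLT3 (-0.56), AFF4 (-0.61) and ASH2L (-0.54) were called lower. With the GC correction KMT2A (-0.11) and MLLT10 (-0.26) lost their calls, PSIP1 gained one (0.32), and MLLT1 (-0.026) and MLLT3 (0.048) turned sign. With DESeq2 KMT2A (-0.15) and MLLT10 (-0.29) lost their calls. The cause was not tested for library sizes alone, the GC correction or DESeq2. Leaving out each library gave -0.20 to -0.12 for KMT2A, -0.46 to -0.19 for MLLT10, -0.20 to -0.10 for AFF4, and -0.20 to 0.048 for MLLT3, which turned sign without siNPM1c replicate 2. AFF1 kept its call in each of 18 settings and DOT1L in 17. The filter of 5 CPM left out MLLT3. A larger pseudocount (5) changed no ratio's direction.

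No pairing by replicate number was seen. Same-numbered libraries deviated from their group means with correlations of 0.0193, -0.00266 and -0.00408 over the tested genes. A pairing weaker than the counting noise of single genes could be missed, so these values do not exclude one. With the replicate number as a block, 2793 genes were called higher and 2793 lower, with 1 member higher and 3 lower. MLLT3, with the fewest counts, had the largest SE of the members (0.18 log2).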

Other observations

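Genes of histone demethylases moved in both directions. Of 7 tested genes of the KDM1, KDM2 and KDM5 families, 3 were called higher and 1 lower, against 21.3% and 21.4% of all genes tested. KDM5B, a demethylase of lysine 4 of histone H3, fell to 54.3 ± 1.88 CPM in siNPM1c cells, against 72.0 ± 2.10 CPM in siControl cells (-0.41 ± 0.04 log2, SE, edgeR). KDM2A, a CpG-binding protein known mainly as a demethylase of lysine 36, rose to 121 ± 0.775 CPM in siNPM1c cells, against 88.6 ± 1.14 CPM in siControl cells (0.45 ± 0.03 log2). Its paralog KDM2B (0.42 ± 0.05 log2) and KDM5C (0.19 ± 0.03 log2), named after their values were seen, were also higher, while KDM1A, KDM1B and KDM5A did not pass the test. With library sizes alone 0 of the 7 were called higher and 5 lower, against 3.90% and 71.5% of all genes tested. KDM2A (-0.01) and KDM2B (-0.05) were not called, and KDM5B (-0.88) and KDM5C (-0.28) were called lower.

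Of 5 tested genes of menin partners and of menin targets in endocrine cells, 2 were called higher and 1 lower, against 21.3% and 21.4% of all genes tested. With library sizes alone 1 was higher and 3 lower, against 3.90% and 71.5%. JUND, a transcription factor that binds menin, had 190 ± 5.35 CPM in siNPM1c cells and 112 ± 1.69 CPM in siControl cells (0.77 ± 0.03 log2, SE), and it was called higher with library sizes alone as well (0.30). SMAD3, a signal transducer of transforming growth factor beta that binds menin, rose by 0.38 ± 0.06 log2, a call that was lost with library sizes alone (-0.09). CDKN2C, the gene of the kinase inhibitor p18, was lower by -0.32 ± 0.09 log2 (named after its value was seen), and CDKN1B, the gene of p27, did not pass the test, at -0.03 ± 0.07 log2.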
